A study of Mus musculus with 9 samples.

Results

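Innate intraepithelial lymphocytes (IELs) of the mouse small intestine that carried the CD8aa homodimer were compared according to whether they also carried the receptor Ly49E. The arrays were chosen by their titles alone: 3 arrays of Ly49E+CD8aa+ cells were set against 3 arrays of Ly49E-CD8aa+ cells, which are 6 of the 9 arrays in the series. The other 3 arrays held Ly49E+CD8aa- cells. They entered the model only through its estimate of the spread between replicates, which was taken as equal in all populations. Their levels are given here as a reference.

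Every array held RNA of NOD SCID mice aged 8 to 10 weeks, with no treatment. The cells were CD3- CD45+, came from the intraepithelial fraction and had been sorted to a purity over 98%, per the labels. The scid mutation blocks the rearrangement of antigen receptor genes, so these mice have innate lymphocytes and myeloid cells but lack mature T and B cells. The titles number the arrays of a population as biological replicates and do not say how many mice stand behind an array, so the p-values measure the spread between these samples. Expression was measured on Affymetrix Mouse Gene 1.0 ST arrays, and all levels are deposited log2 values, on which a difference of 1 is a doubling.

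Ly49E is an inhibitory lectin-like receptor of the Ly49 family, encoded by Klra5 in the natural killer (NK) gene complex and known from fetal NK cells and from IELs. Ly49 receptors share that complex with the CD94/NKG2 and Nkrp1 receptors, which read MHC class I and Clr proteins on neighbouring cells. Innate CD8aa+ IELs are lymphocytes without an antigen receptor that lie between the epithelial cells of the gut. Plasmacytoid dendritic cells, whose marker genes return in several results, are rare leukocytes of lymphoid and myeloid descent that sense nucleic acids through endosomal Toll-like receptors and release type I interferon.

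The labels held for the receptor that separates the populations. Klra5 read 11.31, 11.51 and 11.38 in Ly49E+CD8aa+ against 6.99, 5.48 and 7.31 in Ly49E-CD8aa+, so the populations were far apart and did not overlap. The Ly49E- arrays were also far more scattered, with a standard deviation (SD) of 0.982 against 0.103 (n = 3 each). Of the 5 defining markers of IELs, namely Cd8a, Ptprc (CD45), Itgae (the CD103 integrin chain), Itgb7 (its partner chain) and Gzmb (granzyme B), none differed past the threshold, with differences from -0.03 to 0.11. Their average level was 11.70 to 11.77 in Ly49E+CD8aa+ against 11.73 to 11.76 in Ly49E-CD8aa+. The cells had been gated as CD3-, yet the transcript of the CD3 chain Cd3g was measured in them, at 12.93 ± 0.0189 in Ly49E+CD8aa+ against 12.94 ± 0.0414 in Ly49E-CD8aa+ (SD, n = 3).

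The arrays of the populations were close to each other as a whole. Pearson correlations across genes, which are not independent replicates, were 0.9925 to 0.9941 within Ly49E+CD8aa+, 0.9915 to 0.9941 within Ly49E-CD8aa+ and 0.9907 to 0.9937 between them. Ly49E-CD8aa+ replicate 1 stood somewhat apart. It had the lowest array quality weight of the 9, at 0.508, and it was the highest of its population in 50.0% of all genes, against 25.3% for replicate 2 and 24.6% for replicate 3. Enterocyte markers were highest in replicate 1 of each population, with list averages of 8.05, 8.11 and 8.09 there against 7.37 to 7.69 in the other arrays. Called genes and several of the lists are therefore given with and without it.

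Of 19938 genes tested with limma, 4 were higher in Ly49E+CD8aa+ (0.0201% of the genes) and 22 were lower (0.11%), at a Benjamini-Hochberg adjusted p under 0.05 over all genes. The higher genes were the receptors Klra5, Klrb1b and Cd226 and the enzyme gene Adh1. The lower genes included markers of plasmacytoid dendritic cells (Siglech, Spib, Klra17, Cd209d), components of innate sensing and phagocyte defence (Cd180, Pld4, Cybb, Mpeg1) and the IL-7 receptor gene Il7r. In all 26 the 3 arrays of one population lay wholly on one side of the other 3. This was so for 2.88% of all genes in the higher direction and for 3.38% in the lower direction. The calls were made on the same arrays, so the lack of overlap is no separate support for them. The median difference over all genes was 0.00. With only the 6 arrays of the comparison in the fit, limma left 0 genes past the threshold, with a lowest adjusted p of 0.064, and 695 genes had an unadjusted p under 0.05. Without any 1 array other than Ly49E-CD8aa+ replicate 2, the counts became 1 or 2 higher and 4 to 8 lower, and without Ly49E-CD8aa+ replicate 2 they were 4 and 28.

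**Figure D1:**
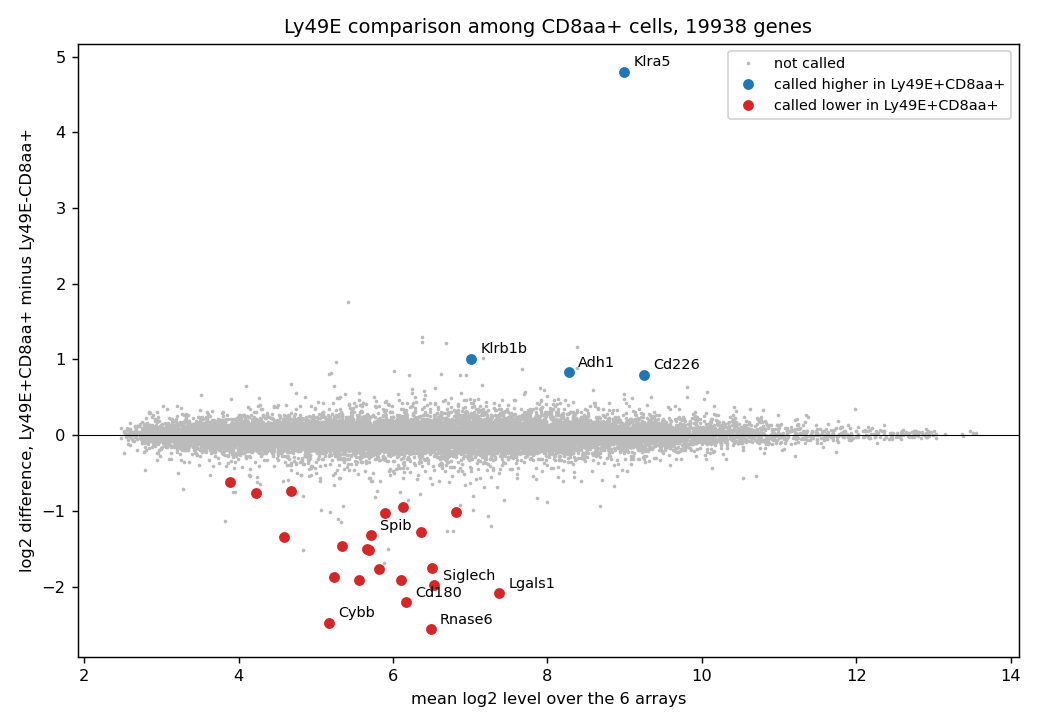
The x axis gives the mean log2 level over the 6 arrays and the y axis the log2 difference, Ly49E+CD8aa+ minus Ly49E-CD8aa+, with 1 point per gene for 19938 genes. The 4 genes called higher (blue) reach 4.80 for Klra5 and lie from 0.80 to 1.01 otherwise, while the 22 called lower (red) run from -0.62 to -2.56 in a field of grey points around 0.

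A descriptive count by size gave a similar balance. The arrays did not overlap and the difference was at least 1 log2 unit in 4 genes in the higher direction (0.0201%) and in 28 in the lower direction (0.14%). Of these 32 genes, 12 were not called, among them Themis and Snord61 on the higher side and Alox5ap and Lair1 on the lower. A further 9 genes had an adjusted p from 0.05 to 0.1, and all 9 were lower in Ly49E+CD8aa+.

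Short stretches of the genome before the start sites of 5 called genes are shown. Klra5 and Klra17 are neighbouring members of a family that moved in opposite directions. Siglech, Blnk and Kmo are lower genes whose windows hold a match to a motif named below. Nucb2, Rnase6, Slamf9 and Hdac9 also have a window with a match, which is not shown. The windows of Cd180, Cybb, Spib, Pld4 and Mpeg1, among others, hold none and are not shown either. The stretches are the 250 bases before the start in RefSeq, assembly GRCm38.p6, read 5′ to 3′ on the strand of the gene. Windows were matched for 20 of the 26 called genes. The windows searched lie on the reference genome, and the NOD strain is known to carry a different set of Ly49 genes. Capitals mark any match, on either strand, to GAGGAAG (reverse CTTCCTC, the core bound by PU.1 and Spi-B), to CAGGTG (reverse CACCTG, an E-box bound by E proteins such as Tcf4) or to ATGCAAAT (reverse ATTTGCAT, the octamer). These 3 motifs share no bases with each other in the windows printed.
Klra5, chr6:129913225-129913474, minus strand: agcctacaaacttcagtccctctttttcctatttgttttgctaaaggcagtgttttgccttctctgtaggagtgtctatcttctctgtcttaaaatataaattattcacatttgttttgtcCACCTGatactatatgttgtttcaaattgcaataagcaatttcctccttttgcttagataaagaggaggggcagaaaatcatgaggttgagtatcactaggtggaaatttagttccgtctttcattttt
Klra17, chr6:129876673-129876922, minus strand: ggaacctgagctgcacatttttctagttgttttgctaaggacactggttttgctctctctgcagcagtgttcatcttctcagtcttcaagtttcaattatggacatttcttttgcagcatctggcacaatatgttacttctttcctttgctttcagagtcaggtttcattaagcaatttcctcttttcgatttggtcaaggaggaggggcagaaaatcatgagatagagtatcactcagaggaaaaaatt
Siglech, chr7:55767934-55768183, plus strand: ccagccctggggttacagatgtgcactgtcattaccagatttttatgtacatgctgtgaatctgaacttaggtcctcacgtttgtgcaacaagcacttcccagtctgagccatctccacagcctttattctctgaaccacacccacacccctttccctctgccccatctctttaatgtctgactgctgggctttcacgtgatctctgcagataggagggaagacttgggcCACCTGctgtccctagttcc
Blnk, chr19:40994222-40994471, minus strand: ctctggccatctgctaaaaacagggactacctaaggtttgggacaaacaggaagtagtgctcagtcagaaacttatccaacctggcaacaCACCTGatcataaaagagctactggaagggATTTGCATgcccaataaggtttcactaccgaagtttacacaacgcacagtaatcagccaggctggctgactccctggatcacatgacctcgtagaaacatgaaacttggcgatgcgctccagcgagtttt
Kmo, chr1:175631943-175632192, plus strand: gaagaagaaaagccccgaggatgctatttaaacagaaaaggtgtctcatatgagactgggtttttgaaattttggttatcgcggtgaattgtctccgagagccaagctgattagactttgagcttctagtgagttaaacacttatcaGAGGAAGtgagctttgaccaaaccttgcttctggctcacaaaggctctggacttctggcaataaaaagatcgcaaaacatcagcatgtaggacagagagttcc

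The windows of Klra5 and Klra17 aligned over 227 bases, of which 176 were identical (77.5%), and their start sites lie 36.6 kb apart. GAGGAAG was found in 4 of the 17 lower genes with a window (Kmo, Nucb2, Rnase6 and Slamf9), against 12.2% of the 15614 tested genes with a window and 10.6% of all 32851 windows. CAGGTG was found in Blnk and Siglech, which is 11.8% of the lower genes with a window, and in Klra5 among the 3 higher ones. Its share was 19.3% of the tested genes and 17.2% of windows. The octamer was found in Blnk and Hdac9, also 11.8%, against 1.79% of the tested genes and 1.6% of windows. A match describes the letters of the window and is no evidence of binding.

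The called higher genes held 3 receptors of NK cells, 1 of them the sort gene Klra5 itself. Klra5 was higher by 4.80 (standard error (SE) 0.383, limma adjusted p = 0.0029), which is 27.9-fold, and stood at 11.43 in Ly49E+CD8aa- cells, level with Ly49E+CD8aa+. Without Ly49E-CD8aa+ replicate 1 it was higher by 5.0 (SE 0.434, limma adjusted p = 0.0124).

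Klrb1b encodes an inhibitory Nkrp1 receptor that binds the Clr-b protein. Its arrays read 7.53, 7.51 and 7.53 in Ly49E+CD8aa+ against 6.27, 6.44 and 6.82 in Ly49E-CD8aa+, a difference of 1.01 (SE 0.125, limma adjusted p = 0.0292). The Ly49E+ arrays were nearly identical, and the Ly49E- arrays were all lower. Ly49E+CD8aa- cells had the highest level of this gene, 11.10. Without Ly49E-CD8aa+ replicate 1 the difference was 0.89 and the adjusted p 0.0662.

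Cd226 encodes DNAM-1, an activating receptor for the nectin family proteins CD155 and CD112. It read 9.67, 9.64 and 9.64 in Ly49E+CD8aa+ against 8.74, 9.08 and 8.74 in Ly49E-CD8aa+, which is higher by 0.80 (SE 0.0971, limma adjusted p = 0.0292). As with Klrb1b, the populations did not overlap and Ly49E+CD8aa- cells were above both, at 10.69. Without Ly49E-CD8aa+ replicate 1 the difference was 0.74 and the adjusted p 0.0982.

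The other genes of the list of NKG2 and Nkrp1 lectin receptors lay mostly above 0, and none of them passed. Of its 16 measured members, 1 was called higher (Klrb1b) and 0 lower, against 0.0201% and 0.11% of all genes. In 14 the difference was above 0, against 9903 of all 19938 genes, and the median difference was 0.28, against 0.00 over all genes. Without Ly49E-CD8aa+ replicate 1 the median was 0.14. The arrays of Klrb1a, an activating Nkrp1 receptor, were at 8.59, 8.59 and 8.57 against 8.28, 8.30 and 8.26, a difference of 0.30 (SE 0.0586, limma adjusted p = 0.236). Klrd1, which encodes the CD94 chain shared by the NKG2 heterodimers, differed by 0.89 with overlapping arrays (SE 0.252, adjusted p = 0.924), and Klrh1 by 0.53 without overlap (adjusted p = 0.831). The differences for Klrk1 (NKG2D), Klrb1c (NK1.1) and Ncr1 (NKp46) were -0.26, 0.10 and -0.15, all with an adjusted p of 1. Cd160, an Ig-like receptor of IELs that binds HVEM, read 10.41, 10.30 and 10.33 against 9.51, 9.89 and 9.94, a difference of 0.57 without overlap (adjusted p = 0.538).

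Within the Ly49 family the 2 called genes went in opposite directions. Klra17 encodes Ly49Q, an inhibitory family member known from plasmacytoid dendritic cells and other myeloid cells. Its arrays read 4.68, 4.93 and 5.11 in Ly49E+CD8aa+ against 6.62, 6.53 and 6.11 in Ly49E-CD8aa+, so that it was lower by 2.85-fold, with a log2 difference of -1.51 (SE 0.16, limma adjusted p = 0.0154, or 0.0628 without Ly49E-CD8aa+ replicate 1). Of 21 Ly49 genes in the list, 6 were measured by a row with 1 symbol. Among these, 1 was called higher and 1 lower, against 0.0201% and 0.11% of all genes. Klra6 and Klra3 differed by 0.48 and 0.65 (limma adjusted p = 0.283 and 1). Klra genes are similar in sequence, and a signal of one may include transcripts of another.

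**Figure D2:**
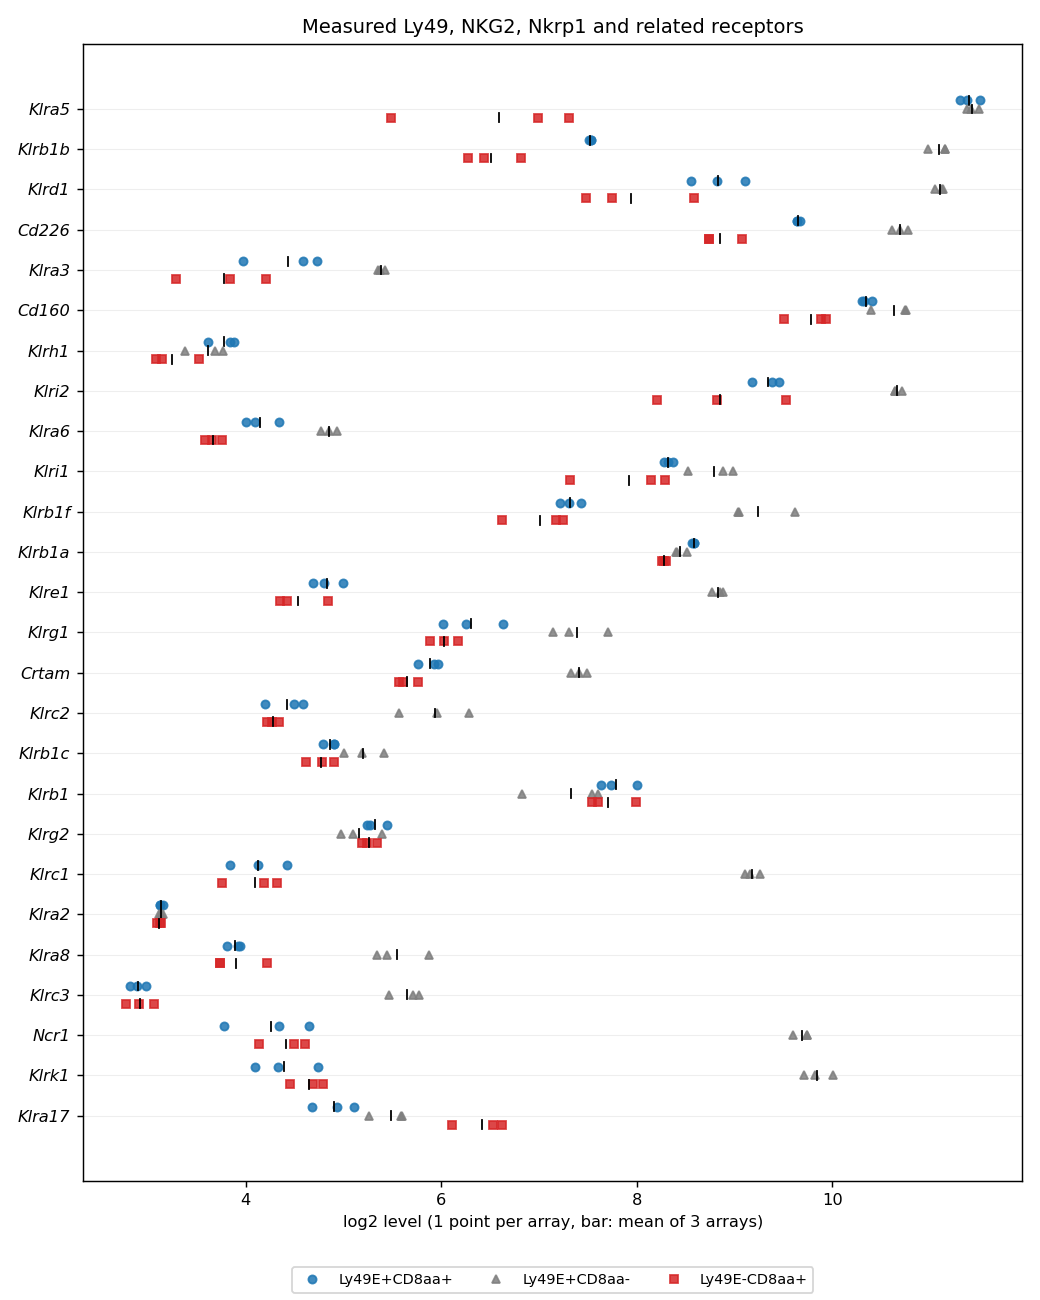
Each row is a measured Ly49, NKG2, Nkrp1 or related receptor gene, the x axis is the log2 level, each point is an array and the black bar is the mean of 3 arrays. Klra5, Klrb1b and Cd226 are higher in Ly49E+CD8aa+ (blue circles) than in Ly49E-CD8aa+ (red squares), Klra17 at the bottom is lower, and Ncr1 and Klrk1 separate Ly49E+CD8aa- (grey triangles) from both.

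Adh1, an alcohol dehydrogenase that oxidises ethanol and retinol, was the 1 called higher gene that is no receptor. It read 8.57, 8.71 and 8.79 in Ly49E+CD8aa+ against 7.73, 7.93 and 7.94 in Ly49E-CD8aa+, a difference of 0.83 (SE 0.0924, limma adjusted p = 0.0183). It was also the 1 higher gene in which Ly49E+CD8aa- cells lay below both CD8aa+ populations, at 6.65. Of 27 measured genes of retinoid and alcohol metabolism no other was called, against 0.0201% of all genes called higher and 0.11% called lower. Their median was 0.02. Without Ly49E-CD8aa+ replicate 1 the difference was 0.76 and the adjusted p 0.0622.

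The 22 lower genes had a common shape. In 20 of them the Ly49E+CD8aa+ mean lay under 5.93, the median of all genes in that population. No detection calls were used, so these rows are not shown to be above background in Ly49E+CD8aa+, and a fold is that of the deposited values, which may understate the difference. In 18 of the 22 the Ly49E+CD8aa- arrays also lay below every Ly49E-CD8aa+ array, and in 16 the Ly49E+CD8aa- mean was within 0.5 of the Ly49E+CD8aa+ mean. In most of these genes, then, the Ly49E- population had the high level and both Ly49E+ populations had low ones.

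The size of the excess was uneven across the Ly49E- arrays. Replicate 1 was the highest of the Ly49E-CD8aa+ arrays in 19 of the 22 genes, replicate 2 in 3 and replicate 3 in 0. The median excess over the Ly49E+CD8aa+ mean was 1.90 in replicate 1, 1.31 in replicate 2 and 1.40 in replicate 3. Without replicate 1, 8 lower genes were called, and Cd180, Siglech, Cybb, Ly6d, Cd209d, Pld4, Rnase6 and Ctsh were those 8, with differences from -1.20 to -2.20. The other 14 kept their direction and lost their call, with adjusted p from 0.0622 for Nucb2 to 0.14 for Lgals1. Such a loss was not particular to replicate 1. Of the 26 calls, higher and lower, 9 were kept without it. Leaving out Ly49E-CD8aa+ replicate 2 kept 23, and leaving out any other array kept 5 to 10.

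**Figure D3:**
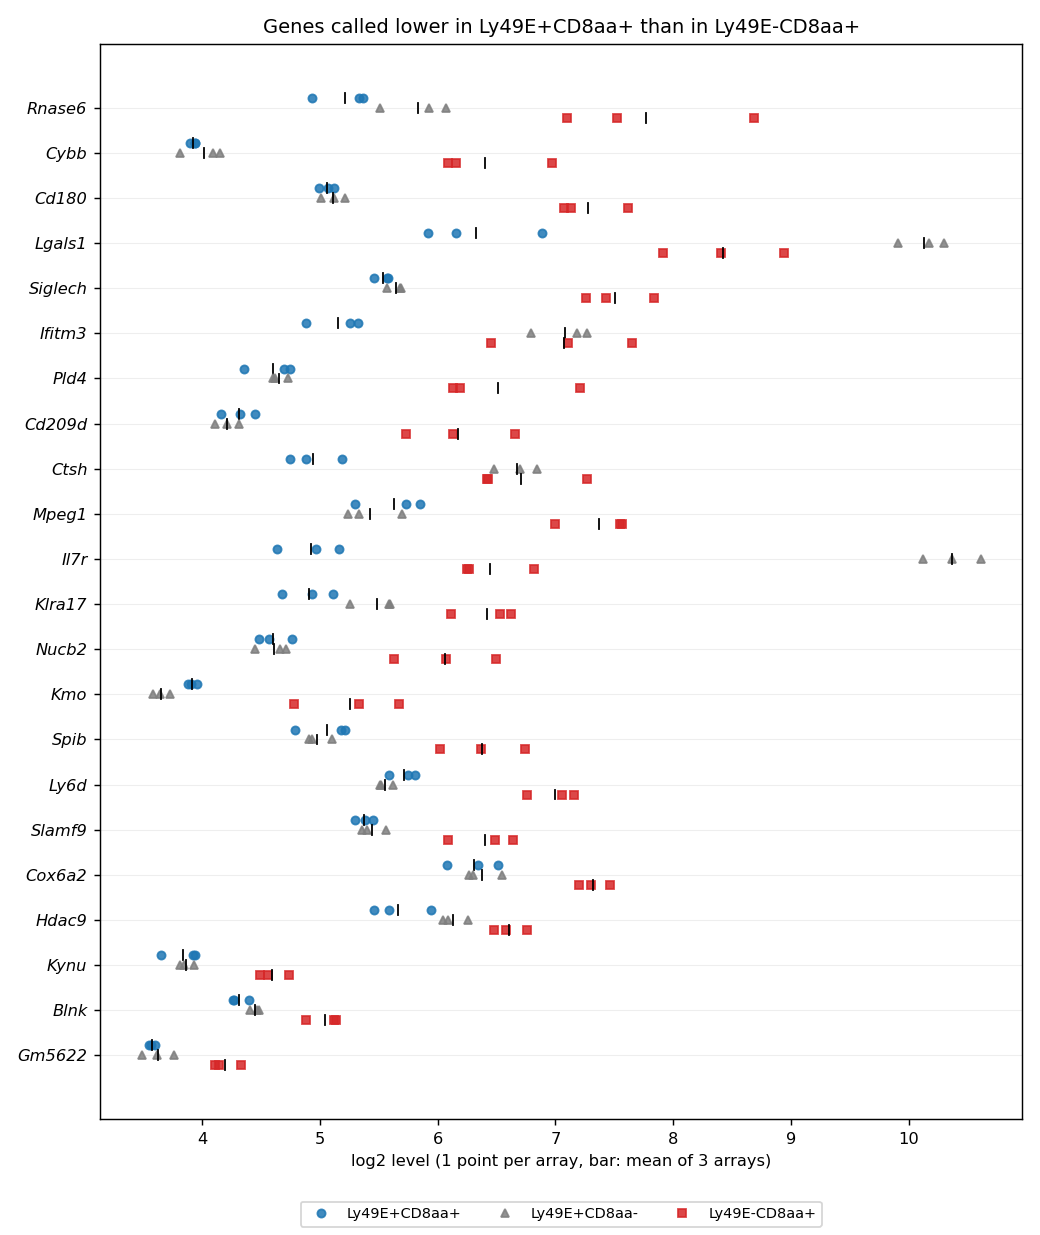
Each row is 1 of the 22 genes called lower in Ly49E+CD8aa+, ordered by the size of the difference, the x axis is the log2 level, each point is an array and the black bar is the mean of 3 arrays. The red squares of Ly49E-CD8aa+ lie to the right of the blue circles of Ly49E+CD8aa+ in every row, and the grey triangles of Ly49E+CD8aa- stand with the blue circles in most rows but to the right of the red squares for Il7r and Lgals1.

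Markers of plasmacytoid dendritic cells made up a large share of the lower genes. Of 23 measured members of that list (of 25), 9 were called lower and 0 higher, against 0.11% and 0.0201% of all genes. In 13 (56.5%) the arrays did not overlap in the lower direction, against 3.38% of all genes. The median difference was -0.53, and -0.36 without Ly49E-CD8aa+ replicate 1. The list average was 6.08 to 6.10 in Ly49E+CD8aa+, against 7.18, 6.64 and 6.69 in replicates 1 to 3 of Ly49E-CD8aa+. Ly49E+CD8aa- cells lay in between, at 6.21 to 6.31. Because the list was drawn up with earlier results of these data known, its count is not independent evidence of its direction. In bulk samples, fewer cells of a type and less RNA per cell cannot be told apart.

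Siglech encodes Siglec-H, a surface lectin of mouse plasmacytoid dendritic cells. Its arrays read 5.46, 5.58 and 5.57 in Ly49E+CD8aa+ against 7.84, 7.26 and 7.43 in Ly49E-CD8aa+, so that it was 3.93-fold lower, with a log2 difference of -1.98 (SE 0.131, limma adjusted p = 0.00099). Spib, an ETS transcription factor of plasmacytoid dendritic cells and B cells, read 5.21, 4.79 and 5.18 against 6.74, 6.02 and 6.37, a difference of -1.32 (SE 0.178, limma adjusted p = 0.0355, or 0.0895 without Ly49E-CD8aa+ replicate 1). In both genes every Ly49E- array lay above every Ly49E+ array, and Ly49E+CD8aa- cells were at the low level, with means of 5.65 and 4.98.

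Ly6d is a GPI-anchored protein that marks B-lineage progenitors and plasmacytoid dendritic cell precursors. Its arrays read 5.81, 5.59 and 5.75 in Ly49E+CD8aa+ against 7.16, 6.76 and 7.06 in Ly49E-CD8aa+, a difference of -1.28 (SE 0.107, limma adjusted p = 0.0029). Rnase6, a secreted ribonuclease with antimicrobial activity, had the most negative difference of all genes tested, -2.56 (SE 0.352, adjusted p = 0.0388), from 5.37, 4.93 and 5.33 to 8.69, 7.10 and 7.52. The spread of its Ly49E- arrays was wide, an SD of 0.824, with replicate 1 well above the other two.

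Cd209d, a C-type lectin of the DC-SIGN family, was at 4.32, 4.45 and 4.16 against 6.66, 6.13 and 5.73 (difference -1.87, SE 0.197, limma adjusted p = 0.0154). Cox6a2, the muscle form of a cytochrome c oxidase subunit, was at 6.34, 6.51 and 6.08 against 7.46, 7.20 and 7.30 (difference -1.01, SE 0.124, adjusted p = 0.0292, or 0.104 without Ly49E-CD8aa+ replicate 1). Blnk, the adaptor that couples the B cell receptor to its downstream enzymes, was at 4.40, 4.27 and 4.26 against 5.12, 5.14 and 4.88 (difference -0.74, SE 0.0834, adjusted p = 0.0183, or 0.0745 without that array). None of the 3 genes overlapped between the populations, and the difference in Blnk was the smallest of the called members of the list.

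The list did not move as a block. Tcf4, the E protein that directs plasmacytoid dendritic cell development, read 8.23, 8.18 and 7.99 in Ly49E+CD8aa+ against 8.64, 8.43 and 8.39 in Ly49E-CD8aa+, a difference of -0.35 that did not pass (limma adjusted p = 0.678). Irf8 and Bst2 differed by -0.37 and -0.67 with overlapping arrays (adjusted p = 1 for both), and Pacsin1 by 0.05. The 14 members that were not called ran from -0.67 for Bst2 to 0.41 for Ccr9, the chemokine receptor of gut homing, which was singled out after its value was seen. Over the 6 defining markers of these cells the average level was 6.98 to 7.02 in Ly49E+CD8aa+ against 7.48 to 8.12 in Ly49E-CD8aa+.

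**Figure D4:**
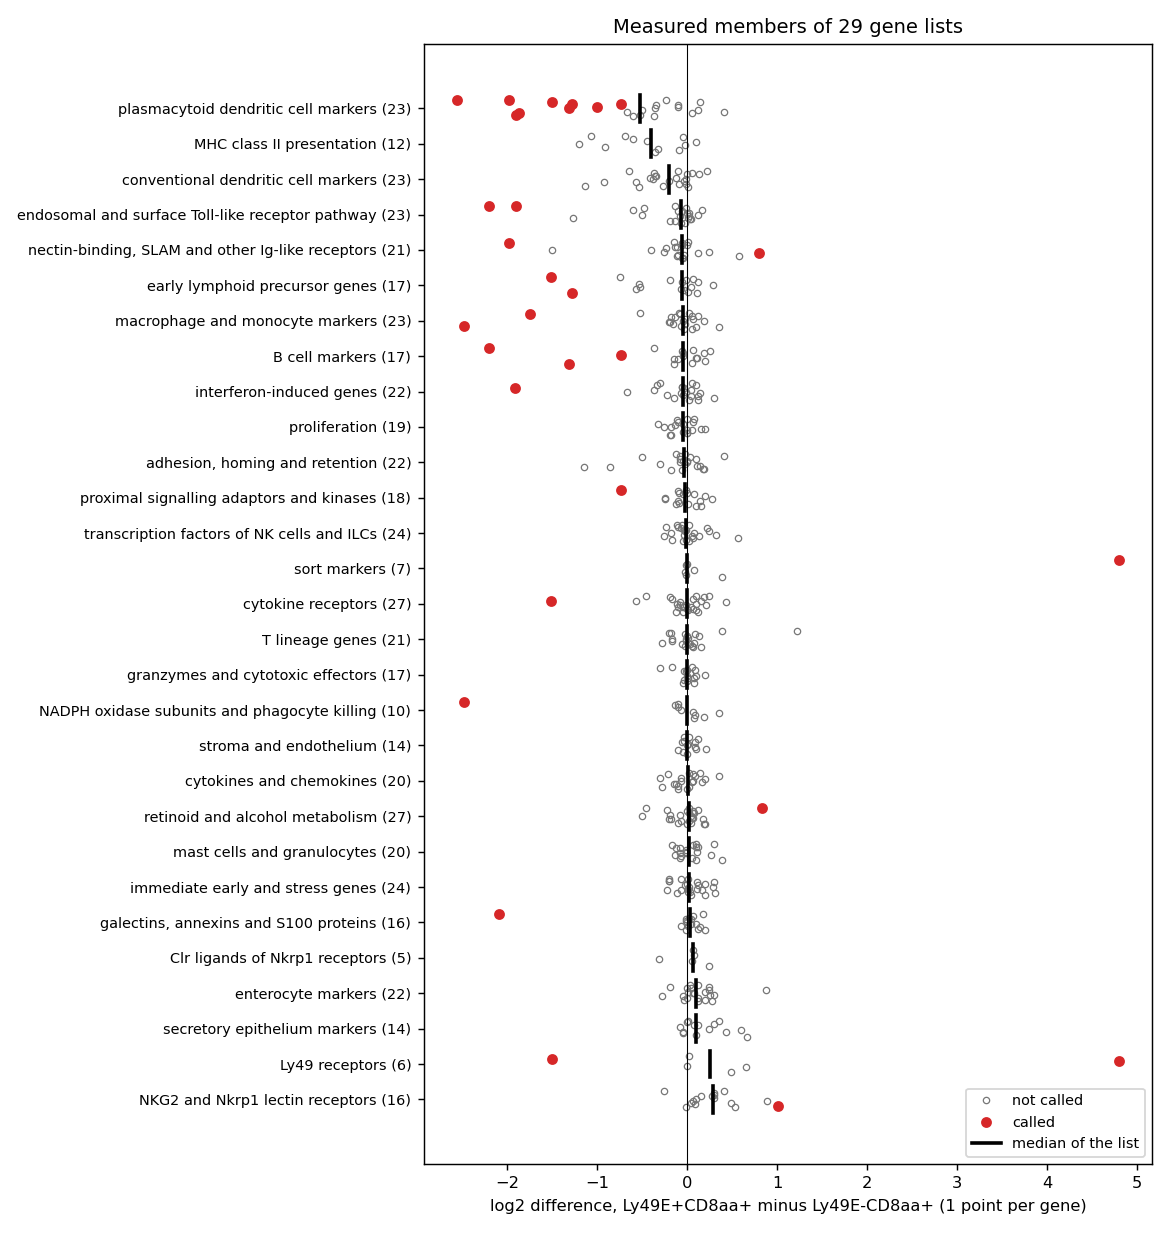
Each row is a gene list with its number of measured members, the x axis is the log2 difference, Ly49E+CD8aa+ minus Ly49E-CD8aa+, each point is a gene and the black bar is the median of the list. Filled red points are genes called at an adjusted p under 0.05: 9 of the 23 plasmacytoid dendritic cell markers are called lower and the median there is -0.53, while most medians lie near 0.

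In the Toll-like receptor pathway Cd180 and Pld4 were lower. Cd180, a Toll-like receptor homologue that sits on the cell surface with the protein MD-1, had the lowest adjusted p of the comparison. It read 5.07, 5.12 and 4.99 in Ly49E+CD8aa+ against 7.62, 7.13 and 7.07 in Ly49E-CD8aa+, which is 4.64-fold lower (difference -2.21, SE 0.135, limma adjusted p = 0.000952). Ly86, which encodes MD-1 itself, read 5.91, 6.19 and 6.32 against 7.79, 6.97 and 7.48, a difference of -1.27 that did not pass (adjusted p = 0.0788). The arrays of both partners were free of overlap.

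Pld4, an endolysosomal exonuclease that limits nucleic acid sensing, read 4.36, 4.70 and 4.75 in Ly49E+CD8aa+ against 7.21, 6.19 and 6.13 in Ly49E-CD8aa+, a difference of -1.91 (SE 0.254, limma adjusted p = 0.0355). Replicate 1 was about 1 log2 unit above the other Ly49E- arrays, and all 3 lay above the Ly49E+ arrays. Of 23 measured genes of the Toll-like receptor pathway, Cd180 and Pld4 were called lower, against 0.11% of all genes, and 0 were called higher. The arrays did not overlap in the lower direction in 6 (26.1%), against 3.38% of all genes, and the median was -0.07. Slc15a3, a transporter of the endolysosome, differed by -0.48 without overlap (adjusted p = 0.374).

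Phagocyte genes were lower in 2 cases and not as a group. Cybb encodes gp91phox, the catalytic subunit of the phagocyte NADPH oxidase. It read 3.94, 3.90 and 3.94 in Ly49E+CD8aa+ against 6.97, 6.09 and 6.16 in Ly49E-CD8aa+, a difference of -2.48 (SE 0.207, limma adjusted p = 0.0029). Its membrane partner Cyba (p22phox) read 9.93, 9.81 and 9.87 against 9.48, 9.63 and 9.47, on the opposite side without overlap, a difference of 0.35 that did not pass (adjusted p = 0.436). Mpeg1, the pore-forming protein perforin-2 of macrophages, read 5.30, 5.85 and 5.73 against 7.55, 7.57 and 7.0 (difference -1.75, SE 0.197, adjusted p = 0.0183, or 0.0895 without Ly49E-CD8aa+ replicate 1).

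Other markers of macrophages and monocytes gave small values. Of 23 measured members of that list 2 were called, Cybb and Mpeg1, both lower, against 0.11% of all genes, and the median was -0.05. None of the 6 defining markers was called or free of overlap, with differences of 0.02 for Adgre1, a surface receptor of macrophages, -0.16 for Csf1r, -0.04 for C1qa, -0.19 for C1qb, 0.18 for Lyz2 and 0.35 for Mertk. Their average level was 4.73 to 4.85 in Ly49E+CD8aa+ against 4.65 to 4.88 in Ly49E-CD8aa+.

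Conventional dendritic cell markers lay on the lower side with no call, and the shift was not seen in the brighter members alone. Of 23 measured, 0 were called and 19 had a difference below 0, against 10023 of all 19938 genes. The arrays of 8 (34.8%) were free of overlap in the lower direction and of 0 in the higher, against 3.38% and 2.88% of all genes. The median was -0.21, or -0.09 without Ly49E-CD8aa+ replicate 1. With only the genes above the median level in the fit it was 0.01. Cd209a, the lectin DC-SIGN, read 4.66, 5.01 and 5.01 in Ly49E+CD8aa+ against 5.69, 6.05 and 5.71 in Ly49E-CD8aa+, a difference of -0.93 (limma adjusted p = 0.0788). Flt3, the receptor for the dendritic cell growth factor Flt3 ligand, differed by -0.57 and the lectin Clec9a by -0.54 (adjusted p = 0.909 and 0.426). The defining markers Zbtb46 and Itgax (CD11c) overlapped, at -0.10 and -0.04. The average level of the 5 defining markers was 5.48 to 5.64 in Ly49E+CD8aa+ against 5.78 to 6.10 in Ly49E-CD8aa+.

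MHC class II genes, which present extracellular antigen and are high in dendritic cells and B cells, also lay on the lower side without a call. Of 12 measured genes (of 14), 6 were free of overlap in the lower direction, against 3.38% of all genes, and the median was -0.41, or -0.35 without Ly49E-CD8aa+ replicate 1. Cd74, the invariant chain, read 6.84, 6.47 and 6.70 in Ly49E+CD8aa+ against 8.34, 7.37 and 7.90 in Ly49E-CD8aa+, a difference of -1.20 (limma adjusted p = 0.146). H2-Aa differed by -1.07 and Ifi30, the lysosomal thiol reductase of antigen processing, by -0.69 (adjusted p = 0.124 and 0.0528). The members differed in where Ly49E+CD8aa- cells stood. H2-Aa was at 7.77 ± 0.231 in Ly49E+CD8aa- cells and at 7.76 ± 0.223 in Ly49E-CD8aa+ (SD, n = 3), whereas Cd74 in Ly49E+CD8aa- cells, at 7.15, lay below all Ly49E-CD8aa+ arrays. H2 genes are open to cross-hybridisation within their family.

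The 3 B cell markers that were called lower also stand in other lists. Of 17 measured, Cd180, Spib and Blnk were called lower, against 0.11% of all genes, and 0 were called higher. The arrays of 3 (17.6%) were free of overlap in the lower direction and of 2 (11.8%) in the higher. The shares of all genes were 3.38% and 2.88%. The median was -0.05, or 0.01 without Ly49E-CD8aa+ replicate 1. Among the defining markers Cd79a, a signalling chain of the B cell receptor, differed by -0.37, Pax5 by -0.15 and Cd79b by -0.11. These overlapped and had a limma adjusted p of 1. Ms4a1 (CD20) read 4.27, 4.16 and 4.02 against 3.97, 4.01 and 3.94, a difference of 0.18 without overlap that did not pass. Of 17 early lymphoid genes, Il7r and Ly6d were called lower, against 0.11% of all genes. The arrays of 6 (35.3%) were free of overlap in the lower direction, against 3.38% of all genes. Their list median was -0.06, or 0.03 without Ly49E-CD8aa+ replicate 1. Bcl11a and Mef2c, transcription factors of early lymphoid cells, differed by -0.75 and -0.54 (limma adjusted p = 0.168 and 0.199).

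These lists share members, and several of them hold some of the 22 lower genes. The averages of plasmacytoid and conventional dendritic cell, macrophage, B cell and MHC class II lists were all highest in Ly49E-CD8aa+ replicate 1 of that population. So were 19 of the 22 lower genes. Among all genes, replicate 1 was the highest in 50.0%. The plasmacytoid dendritic cell list stood 1.09, 0.55 and 0.6 above the Ly49E+CD8aa+ mean in replicates 1 to 3. Over all genes these values were 0.03, -0.01 and -0.01. Enterocyte markers were also highest in replicate 1, at 8.09 against 7.50 and 7.37 in replicates 2 and 3. The part of cells of those types in the result was not tested.

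**Figure D5:**
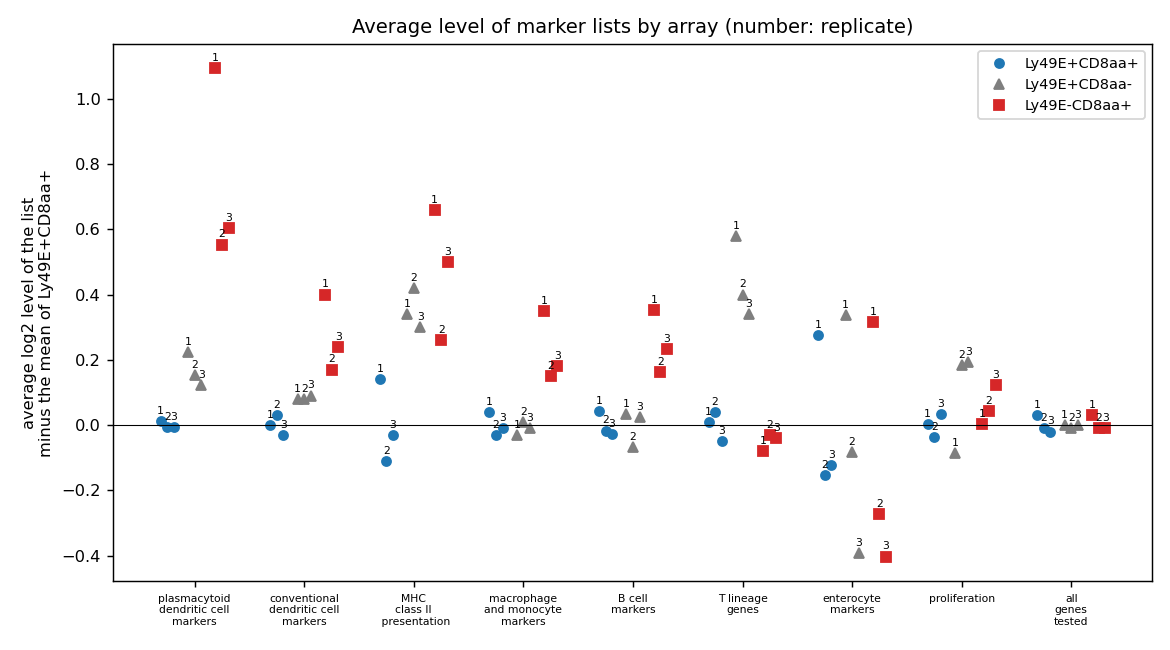
The y axis gives the average log2 level of a list in an array minus the mean of Ly49E+CD8aa+, and the x axis the lists and all genes tested, with 1 point per array and its replicate number above it. Plasmacytoid dendritic cell markers stand 0.55 to 1.09 higher in Ly49E-CD8aa+ (red squares), with replicate 1 on top, and enterocyte markers are highest in replicate 1 of each population.

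Il7r and Lgals1 were the exceptions to the shared shape, with the highest levels in Ly49E+CD8aa- cells. Il7r encodes the alpha chain of the IL-7 receptor, a growth factor receptor of lymphoid precursors and helper-type innate lymphoid cells. It read 4.97, 4.64 and 5.16 in Ly49E+CD8aa+ against 6.82, 6.25 and 6.27 in Ly49E-CD8aa+, while Ly49E+CD8aa- cells were at 10.37 ± 0.244 (SD, n = 3). Between the CD8aa+ populations it was 2.87-fold lower (difference -1.52, SE 0.192, limma adjusted p = 0.0303, or 0.0745 without Ly49E-CD8aa+ replicate 1). Lgals1, the glycan-binding protein galectin 1, read 6.16, 5.92 and 6.89 against 8.94, 7.91 and 8.41 (difference -2.09, SE 0.291, adjusted p = 0.041, or 0.14 without that array), with 10.13 ± 0.201 in Ly49E+CD8aa- cells. For these 2 genes the Ly49E+CD8aa+ cells were the low population of the 3.

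Ctsh and Ifitm3 showed another pattern, in which Ly49E-CD8aa+ and Ly49E+CD8aa- arrays overlapped and Ly49E+CD8aa+ was low. Ctsh, the lysosomal protease cathepsin H, read 4.75, 5.19 and 4.88 in Ly49E+CD8aa+ against 7.27, 6.42 and 6.43 in Ly49E-CD8aa+, with a mean of 6.68 in Ly49E+CD8aa- cells (difference -1.77, SE 0.223, limma adjusted p = 0.0303). Ifitm3, an interferon-induced membrane protein that restricts virus entry, read 5.26, 5.32 and 4.88 against 7.65, 6.45 and 7.11, with a mean of 7.08 (difference -1.92, SE 0.272, adjusted p = 0.0438, or 0.0982 without Ly49E-CD8aa+ replicate 1). Of 22 measured interferon-induced genes Ifitm3 was the 1 called, against 0.11% of all genes called lower and 0.0201% called higher. Their median was -0.05, or 0.04 without Ly49E-CD8aa+ replicate 1. Ccr2, a chemokine receptor of monocytes and innate lymphoid cells, read 4.83, 4.42 and 5.02 against 6.28, 5.75 and 5.68, did not pass (difference -1.15, adjusted p = 0.0893) and was highest in Ly49E+CD8aa- cells, at 6.92.

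Of the 22 lower genes 7 were in no list, Ctsh and 6 others. Kmo and Kynu encode enzymes of the kynurenine route of tryptophan breakdown, and both were lower, Kmo from 3.88, 3.91 and 3.96 to 5.67, 4.78 and 5.33 (difference -1.35, SE 0.181, limma adjusted p = 0.0355) and Kynu with a difference of -0.76 (SE 0.0989, adjusted p = 0.0336). Nucb2, a calcium-binding protein, read 4.48, 4.76 and 4.57 against 6.5, 5.63 and 6.07 (difference -1.47, SE 0.192, adjusted p = 0.0341). Slamf9, a receptor of the SLAM family, and Hdac9, a class IIa histone deacetylase, differed by -1.03 and -0.95 (adjusted p = 0.0319 and 0.0355). The predicted gene Gm5622 had the smallest difference of the called genes, -0.62 (adjusted p = 0.0414). All 6 lost their call without Ly49E-CD8aa+ replicate 1, with an adjusted p of 0.0662 for Kmo, 0.104 for Kynu, 0.0622 for Nucb2, 0.0895 for Slamf9, 0.0982 for Hdac9 and 0.135 for Gm5622.

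The lists of NK cell and innate lymphoid factors and of cytotoxic effectors held no called gene. Of 24 measured transcription factors of innate lymphocytes, 0 were called and the median was -0.02. The T-box factors Tbx21 and Eomes differed by -0.12 and -0.26, Id2 by 0.22 and Zbtb16 (PLZF) by 0.32, each with an adjusted p of 1, while Gata3, Ahr and Nfil3 (-0.04, -0.02 and 0.07) changed sign in some alternatives. Lef1, a factor downstream of Wnt signals and of early T cells, read 6.46, 6.73 and 6.41 against 6.13, 5.93 and 5.86, a difference of 0.56 without overlap (limma adjusted p = 0.419).

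Of 17 granzymes and cytotoxic effectors, whose genes are in part open to cross-hybridisation, 0 were called and the median was 0.00. Gzmb was at 12.73 and 12.75 and Gzmk differed by -0.31 (limma adjusted p = 0.831). Of 20 cytokines and chemokines 0 were called. Xcl1, the chemokine that attracts Xcr1+ dendritic cells, read 12.11, 12.15 and 12.19 in Ly49E+CD8aa+ against 11.63, 11.97 and 11.80 in Ly49E-CD8aa+, a difference of 0.35 without overlap (adjusted p = 0.627), and its receptor gene Xcr1 differed by -0.35 (adjusted p = 1). Of 27 cytokine receptors Il7r was the 1 called, against 0.11% of all genes called lower and 0.0201% called higher. Il2rb, the beta chain shared by the IL-2 and IL-15 receptors, differed by 0.04.

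T lineage genes gave 0 calls of 21 with a median of -0.01, and Themis stood out from them. Themis, an adaptor of T cell receptor signalling, read 7.11, 7.26 and 7.52 in Ly49E+CD8aa+ against 5.95, 5.97 and 6.32 in Ly49E-CD8aa+, a difference of 1.22 without overlap that did not pass (SE 0.248, limma adjusted p = 0.283). Cd8b1 and Cd3e overlapped, at -0.02 and 0.07. Of 22 enterocyte markers 0 were called, and the median was 0.10, or 0.31 without Ly49E-CD8aa+ replicate 1. The lists of mast cells and granulocytes, stroma and endothelium, proliferation, secretory epithelium and immediate early genes had 0 calls and medians from -0.05 to 0.10, and without Ly49E-CD8aa+ replicate 1 from -0.07 to 0.23. A p-value that misses the threshold does not show that the populations are alike, and with 3 arrays each the median SE of a difference was 0.0976.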

How the data were processed

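Total RNA of 9 sorted samples was measured on 9 single-channel arrays. The deposited values are log2 expression levels, which the authors obtained by RMA according to the submitters' processing notes. Each array has 1 value per transcript cluster, and the values ran from 1.84 to 13.84. For RMA no version, and for the clusters no build or annotation, is given in the sources used here. Of 35556 rows, 21789 carried 1 gene symbol in the platform annotation (21698 matched to a current gene record), 1621 carried several and 12146 were not listed. Where a gene had more than 1 such row (999 genes), its brightest row by the mean of the 9 arrays was kept, which left 19938 genes and no filter on dim ones. Detection calls were not used, and a low value is no evidence of absence.

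All 9 arrays were fitted together, 1 mean per population, with limma 3.58.1 in R 4.3.3, with empirical Bayes moderation (6 residual and 3.08 prior degrees of freedom). The fit takes 1 spread per gene for all populations, and the SEs and adjusted p rest on that. For Klra5 the SD was 0.103 in Ly49E+CD8aa+, 0.982 in Ly49E-CD8aa+ and 0.0654 in Ly49E+CD8aa-. Where Ly49E-CD8aa+ scattered the most, as there, the SE may be too small. Tests were 2-sided with Benjamini-Hochberg adjustment over all genes, and a gene was called at an adjusted p under 0.05. The fit was tested on simulated data with known differences and, for each gene, an equal spread in all populations. Differences are Ly49E+CD8aa+ minus Ly49E-CD8aa+. The comparison, the 29 gene lists and the defining markers were chosen with earlier results of these data known, and lists are described by counts and medians, without a test.

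The genes named were the sort markers and a set of factors and receptors whatever their test, every called gene, the 15 genes with the largest difference each way among those with a difference of at least 1 and no overlap (predicted genes left out), up to 4 members of each list with the lowest unadjusted p under 0.05, and the defining markers of cell types. Promoter windows came from RefSeq (GRCm38.p6). Alternatives were the 6 arrays alone, a block for the replicate number, filters at the 25th percentile and the median, quantile normalization again, centring, an intensity trend, robust moderation, array weights, the mean of a gene's rows and leaving out each array. All rows of the table, named or not, were added after seeing the data.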

Additional observations from a re-analysis of the deposited data

How the results depend on the processing

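The counts of 4 higher and 22 lower genes depended on the arrays in the fit. With the 6 arrays of the comparison alone they were 0 and 0, with the genes above the median 4 and 11, and with all rows of the table, an alternative chosen after seeing the data, 10 and 10. Leaving out 1 array at a time gave 1 to 4 higher and 4 to 28 lower genes. The replicate block gave 3 and 14, and 15 of the 26 calls passed in it. Replicate numbers were not taken to pair the samples, as the labels do not say what they mark. Correlations of deviations ran from -0.063 to 0.222 between arrays of the same number and from -0.169 to 0.103 between others. The highest were those between replicate 1 arrays, at 0.222, 0.172 and 0.127, so replicate 1 shared part of its deviation across populations. The main fit does not model that. In all, 6 of 9 arrays correlated best with their own number. The other filter, the normalizations, the moderation settings, the array weights and the mean of rows gave 4 higher and 19 to 23 lower genes.

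Of the 26 calls, those of Cd180, Siglech, Klra5, Cybb and Ly6d passed in every alternative run for them but the 6 arrays, the block not counted, and those of Kmo, Lgals1, Gm5622 and Ifitm3 were lost in 10 or more. All 26 kept their direction in every alternative. The 13 values that changed sign were of genes not called. Leaving out 1 array moved Cd8b1 between -0.10 and 0.02 (positive without Ly49E-CD8aa+ replicate 1 or 2, 0.02 and 0.01), Ptprc between -0.07 and 0.02 (0.02 without Ly49E+CD8aa+ replicate 3, 0.00 without Ly49E-CD8aa+ replicate 2), Gata3 between -0.13 and 0.02 (0.01 without Ly49E+CD8aa+ replicate 1) and Ahr between -0.08 and 0.02 (0.01 without Ly49E+CD8aa+ replicate 3). It moved Nfil3 between -0.03 and 0.16 and Ncr1 between -0.34 and 0.09. Ahr was also 0.00 with centring and 0.03 with array weights. The cause of these changes was not tested. Of 550 list medians recomputed, 20 moved by more than the spread between replicates. The plasmacytoid dendritic cell median ran from -0.69 to -0.30.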

Other observations

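Rows of the table that carry no single gene symbol were left out of the main fit, and some of them passed when added. When all 35556 rows were tested together with limma, an alternative chosen after seeing the data, 10 rows passed in the higher and 10 in the lower direction, and 11 of these 20 had no single symbol. The other 9 were rows of genes called in the fit of named genes.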
